A study of Mus musculus with 10 samples.

Results

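The cytosolic ribosomal protein genes encode the proteins of the ribosome that translates nuclear-encoded messages. They were described here in the left ventricle of mice after TAC, which in cardiac work usually stands for transverse aortic constriction, a surgical pressure overload. The members were the rows of the deposited table whose symbol is Rpl or Rps followed by a digit, or Rplp0, Rplp1, Rplp2 or Rpsa, and which GENCODE M21 and RefSeq both list as protein-coding. Pseudogenes and the Rps6k kinases were left out. This gave 87 of 45706 genes, 52 of the large subunit, 34 of the small subunit and Rps19bp1, which carries the name but encodes a protein that binds S19 and is not part of the ribosome.

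The study compared 5 libraries labelled TAC with placebo, whose treatment label reads vehicle, with 5 labelled TAC with osimertinib, an inhibitor of the EGFR tyrosine kinase used against lung cancer. The design text gives as its aim the molecular basis of heart damage by this drug. TAC is common to both groups, and no library of an unoperated heart was analysed here. Strain, sex, age, dose and duration were not given in the sources used here, nor whether each library came from its own animal. The p-values therefore set group differences against the spread between these libraries, which may not be the spread between animals.

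Each cytosolic ribosome holds 1 copy of nearly every ribosomal protein, and cells keep the output of these genes in step. Most of their messages begin with a run of pyrimidines at the 5′ end, the TOP motif, through which mTORC1 and the RNA-binding protein Larp1 govern their translation. The heart also makes paralogs of a few members, of which Rpl3l, a form of Rpl3 found in heart and skeletal muscle, is the best known.

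The start sites show what the members share in sequence. RefSeq promoter windows (GRCm38.p6) were matched by symbol for 67 of the 87 members. The hexamers CTTTCC or CTTTTC, read on the gene's strand within 30 bases before and 30 after a start, were present in 18 of these 67 genes (26.9%), against 1538 of 27025 genes in all (5.69%). CCGGAA, the core letters of an ETS-family site searched on both strands over 300 bases, was present in 53.7% of the members and 16.7% of all genes. AAGATGGC, core letters of a YY1 site searched the same way, was present in 8.96% and 3.19%. A match describes these letters and is not evidence of use.

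The sequences below run from 30 bases before the start, so the 31st base is the start itself. They are shown for Rpl38, Rps27, Rps12 and Rpl13a, whose share of ribosomal protein reads lay below the placebo range with osimertinib, for Rpl4 and Rpsa as abundant members, and for the paralogs Rps27l, Rpl22l1 and Rpl3l. Capitals mark the first pyrimidine hexamer where 1 was found.
Rpl38 (chr11:114668550-114668609, + strand): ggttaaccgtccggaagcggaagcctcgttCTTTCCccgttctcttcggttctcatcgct
Rps27 (chr3:90213619-90213678, - strand): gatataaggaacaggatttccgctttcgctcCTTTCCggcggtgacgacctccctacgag
Rps12 (chr10:23787180-23787239, - strand): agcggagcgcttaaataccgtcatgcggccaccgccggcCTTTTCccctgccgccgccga
Rpl13a (chr7:45128716-45128775, - strand): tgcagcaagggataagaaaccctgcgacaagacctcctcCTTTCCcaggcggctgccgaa
Rpl4 (chr9:64173357-64173416, + strand): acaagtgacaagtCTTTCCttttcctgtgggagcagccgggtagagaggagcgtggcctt
Rpsa (chr9:120127736-120127795, + strand): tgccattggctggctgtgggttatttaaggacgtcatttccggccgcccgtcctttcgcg
Rps27l (chr9:66946056-66946115, + strand): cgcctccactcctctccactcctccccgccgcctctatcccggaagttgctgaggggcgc
Rpl22l1 (chr3:28805478-28805537, + strand): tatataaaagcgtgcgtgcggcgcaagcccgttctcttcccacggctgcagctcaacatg
Rpl3l (chr17:24727796-24727855, + strand): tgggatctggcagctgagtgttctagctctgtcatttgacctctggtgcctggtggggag

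In Rpl38 the hexamer begins at the start base itself, in Rps27 1 base later, and in Rps12 and Rpl13a 9 bases later. In Rpl4 it begins at -17 from the start, and so lies before the listed message. Its last base also opens an overlapping CTTTTC, printed in lower case, which lies before the start too. The windows of the paralogs Rps27l, Rpl22l1 and Rpl3l hold neither hexamer. The hexamers do not cover every run of pyrimidines, and the Rpl22l1 window holds ttctcttccc after its start. Of the 67 members, only Rpl3l (1.49%) matched the consensus of MEF2, a muscle transcription factor, a lower share than the 3.70% of all genes. The match lies at another start that RefSeq lists inside the gene, and begins 123 bases before it.
Rpl3l, MEF2 match (chr17:24732552-24732581, + strand): aaatgtcagcTTAAAAATAGcaccagccct

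Deposited values were read counts scaled to a library total of 1000000 (CPM). The spacing of low values put the depth between 15863265 and 21309296 reads a library. Nuclear copies of mitochondrial genes were sought only among tested genes of chromosome 1. A copy shared at least 50% of its 31-base words with mitochondrial transcripts. Mitochondrial genes and the 7 copies found took 45.0% to 63.7% of the reads in 9 libraries and 83.0% in placebo replicate 5. In that library all 83 tested members and 87.9% of all genes tested had their lowest deposited CPM. CPM were therefore also rescaled by each library's median ratio over tested genes, and the divisor of placebo replicate 5 was 0.455 against 0.926 to 1.34 elsewhere. The 10 cardiomyocyte markers summed to 15750 to 51211 rescaled CPM and skeletal muscle markers to 12.6 to 35.5. The 7 atrial markers summed to 497.4 to 1386 with placebo and 695.0 to 4576 with osimertinib. Of these, Bmp10 was at 0 in all 10 libraries, and the 6 tested had a median log2 fold change of 0.97. None of the 6 passed in rescaled CPM (limma, 2 at an unadjusted p under 0.05), beside 20.8% of all genes tested. In deposited CPM 3 rose (Tbx5, Nppa and Dkk3), beside 6.62% of all genes tested. The part of these markers in the results was not tested.

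Whether the ribosomal protein genes as a whole made more or fewer reads with osimertinib depended on the denominator. They took 1.29% ± 0.296 (SD, n = 5) of all reads with placebo and 1.57% ± 0.106 (n = 5) with osimertinib. Of the reads outside mitochondrial genes they took 2.41% ± 0.152 and 2.51% ± 0.136. Once the 7 nuclear copies were also set aside, the order turned, to 3.61% ± 0.661 with placebo and 3.20% ± 0.256 with osimertinib.

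Placebo replicate 5 was the lowest of the 10 libraries by the first 2 measures and the highest by the third, at 0.808%, 2.20% and 4.75%. Without it the placebo means were 1.41% ± 0.138, 2.46% ± 0.114 and 3.33% ± 0.209 (n = 4), and the ranges of the groups overlapped under every denominator. In these bulk samples fewer cells of a type and less RNA per cell cannot be told apart.

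**Figure D1:**
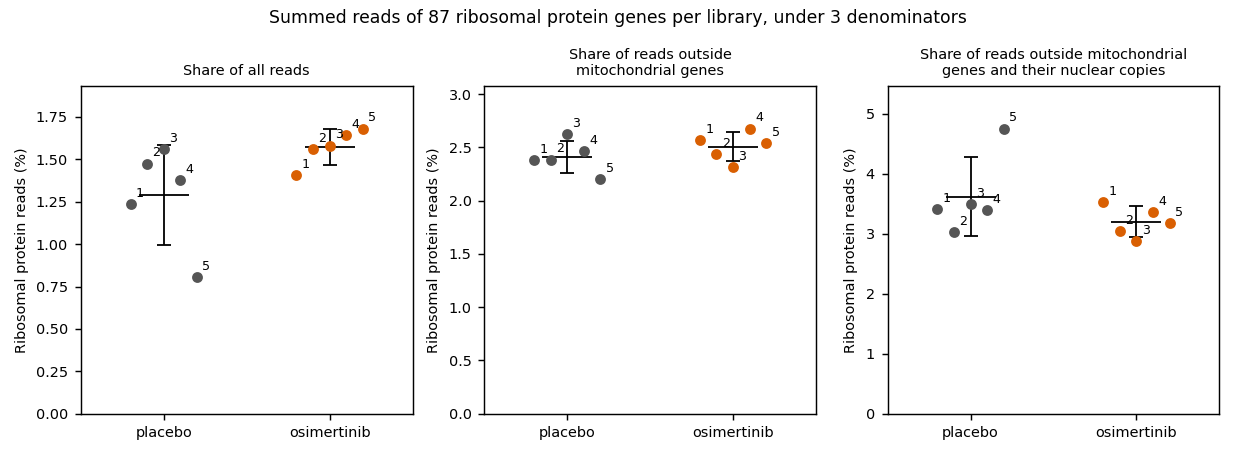
Reads of the 87 ribosomal protein genes as a percentage of all reads and of reads outside mitochondrial genes. The right panel also leaves out 7 nuclear copies of these. Each point is a library, numbered by replicate, and bars give the mean and SD of 5. Placebo replicate 5 lies lowest in the left and middle panels (0.808% and 2.20%) and highest in the right panel (4.75%).

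By gene, 83 of the 87 members reached 1 CPM in 5 or more libraries and were tested among 12350 genes. None of the 83 passed an adjusted p of 0.05 in the rescaled CPM (limma), where 20.8% of all genes tested did (10.4% higher and 10.5% lower). Only 1 member, Rpl38, had an unadjusted p under 0.05, and voom (limma) on the estimated reads also called 0 members. The members' log2 fold changes (osimertinib over placebo, on CPM + 0.5) had a median of 0.02, with 44 above and 39 below 0, beside a median of 0.01 over all genes. The rescaled CPM of the groups overlapped in all 83 members, and did not in 12.5% of all genes tested. The 50 large-subunit genes had a median of 0.00 and the 32 small-subunit genes of 0.06.

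In the deposited CPM none of the 83 passed either (limma, 2 at an unadjusted p under 0.05), while 6.74% of all genes did (6.62% higher and 0.13% lower). There 82 of 83 members lay above 0 with a median of 0.30, and the median of all genes was 0.27. Relative to that shift the members' median was 0.03. With quantile normalization the members' median was -0.13 beside -0.02 for all genes, and 72 of 83 lay below 0. Without mitochondrial and haemoglobin genes it was 0.04 beside 0.04, and with the nuclear copies also left out -0.18 beside -0.17. Across these 5 scalings only 5 of 83 members kept 1 sign, which were Rpl3l, Rps27l, Rpl24 and Rps19bp1 above 0 and Rpl38 below 0.

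The precision of these values bounds the change in most members. The 95% interval lay within a 1.5-fold change either way for 75 of the 83 members in the rescaled CPM, as it did for 44.8% of all genes tested. It lay within 2-fold for 82 of 83, the exception being Rpl3l, beside 82.2% of all genes. Those outside 1.5-fold were Rpl3l, Rps2, Rps27l, Rplp0 and Rpl24 upward and Rpl3, Rps12 and Rpl38 downward. These bounds hold for the rescaled CPM and would move with another scaling.

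**Figure D2:**
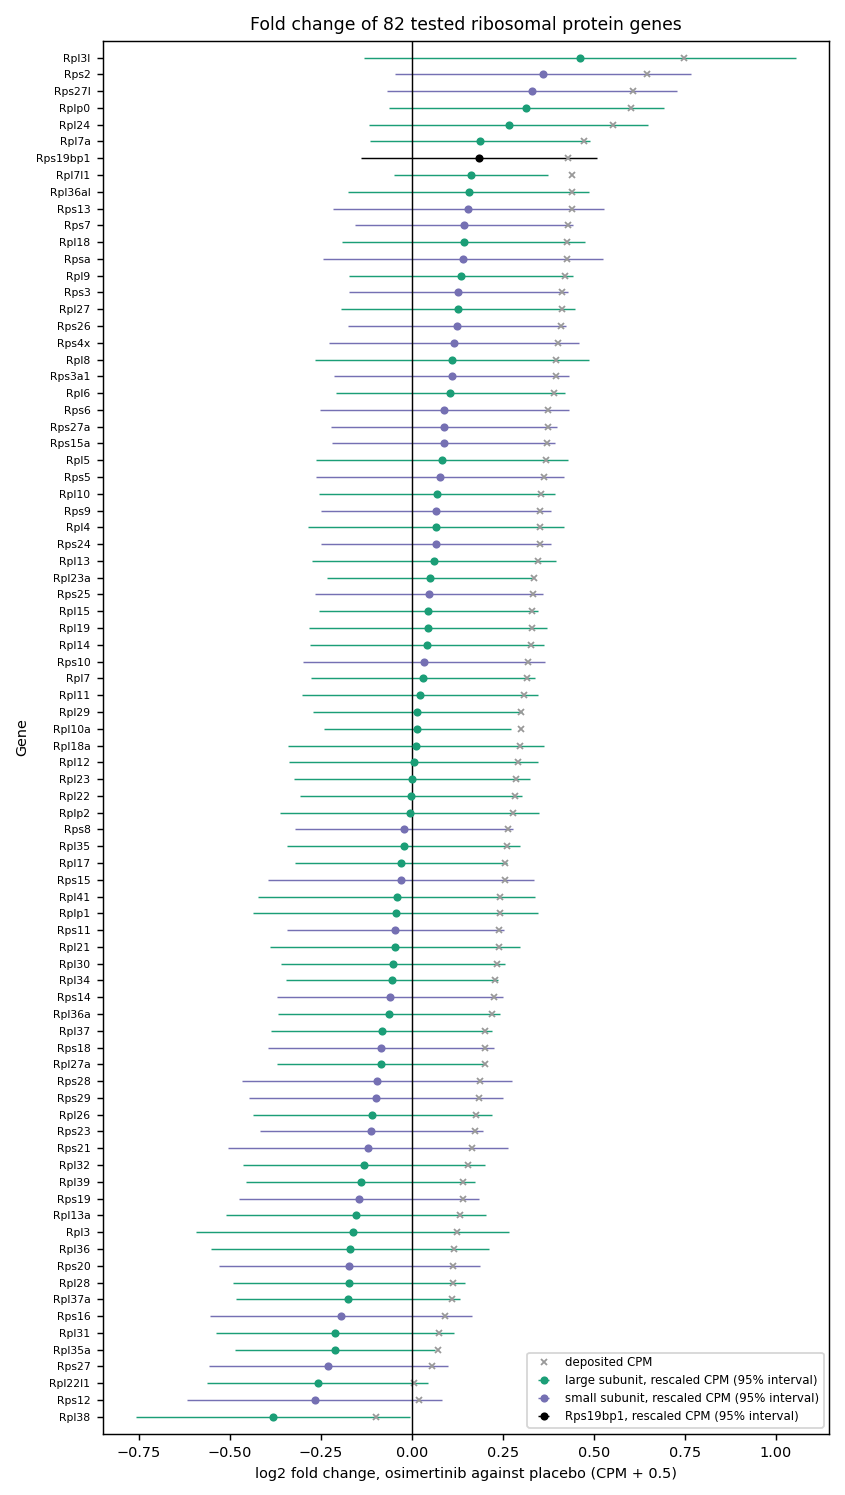
The log2 fold change, osimertinib against placebo on CPM + 0.5, for 82 of the 83 tested genes in rescaled CPM (circles with 95% intervals, coloured by subunit) and in deposited CPM (crosses). In rescaled CPM 43 circles lie above 0 and 39 below, while 81 of 82 crosses lie above 0.

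The members moved together from library to library. In rescaled CPM 49 of the 83 (59.0%) had their highest value in placebo replicate 5 and 62 (74.7%) their lowest in placebo replicate 2, beside 17.6% and 9.26% of all genes tested. The other highest values were 20 in osimertinib replicate 5, 13 in placebo replicate 3 and 1 in osimertinib replicate 3. The within-group SD of log2 values had a median over members of 0.29 with placebo and 0.15 with osimertinib, and was larger with placebo for all 83 members, as for 59.5% of all genes tested. Without placebo replicate 5 the placebo median was 0.25, beside 0.22 over all genes tested. The placebo SD was then the larger for 75 members, as for 50.1% of all genes tested. Members share their libraries, so these counts are not independent of each other.

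**Figure D3:**
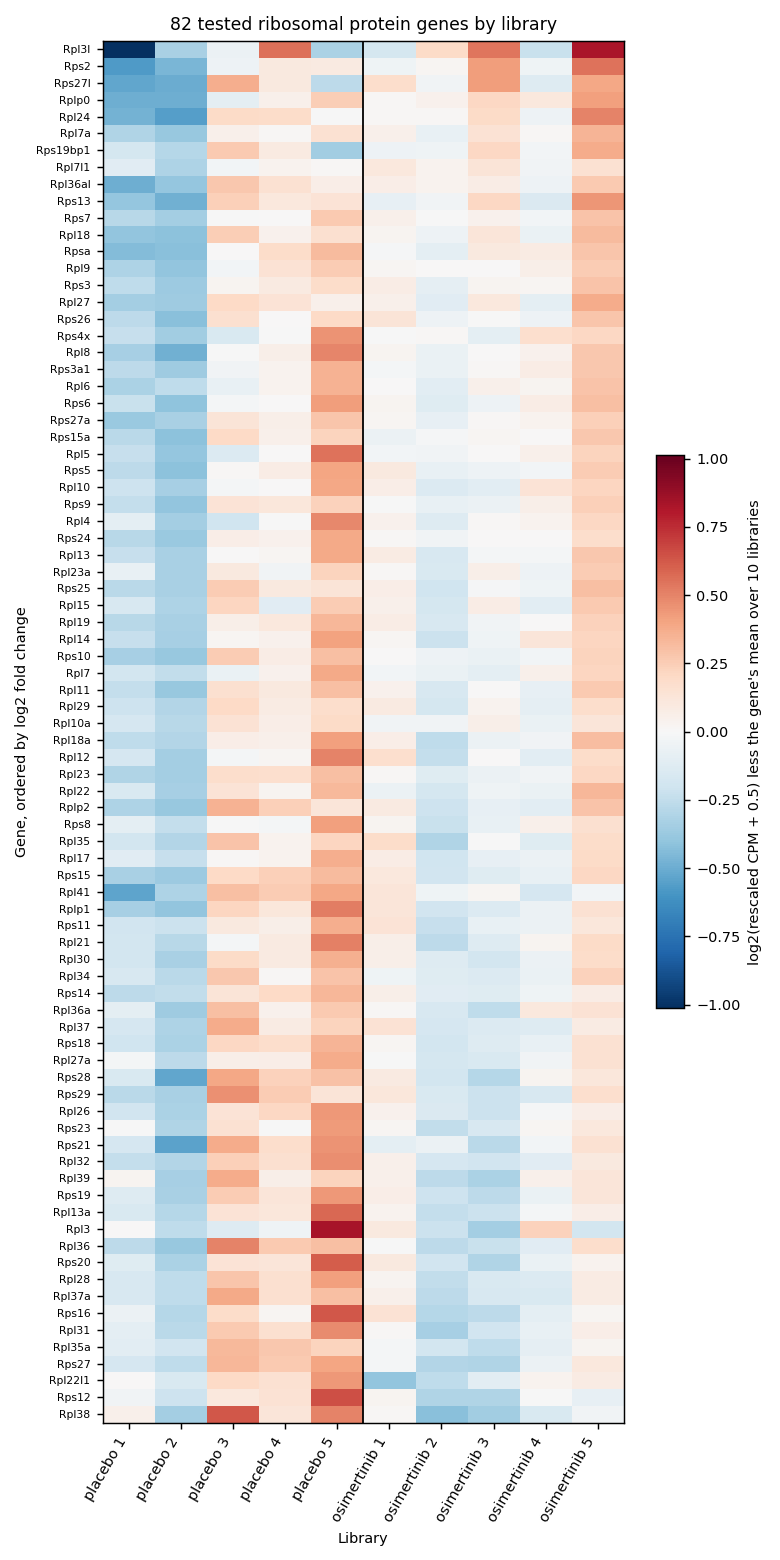
Rows are 82 of the 83 tested genes, ordered by log2 fold change, and each column a library; colour gives log2(rescaled CPM + 0.5) less the gene's mean over the 10 libraries. Columns change colour nearly as a block, with 62 genes lowest in placebo replicate 2 and 49 highest in placebo replicate 5.

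Levels per transcript length were compared over both groups. Among the 77 tested members that are neither paralogs nor Rps19bp1, the mean deposited CPM per kb had a median of 195.7, and 63 lay between 100 and 400. Among the highest were Rps15 (639.9 CPM per kb), Rplp1 (616.2), Rps12 (454.6), Rpl13 (445.3), Rps2 (418.2), Rps14 (402.2) and Rpl26 (373.4). The lowest was Rps15a at 18.4, whose annotated principal transcript is 5.13 kb long. Reads of these genes can be divided with near-identical copies: a median of 42.0% of a member's 31-base words also occur in another gene, from 0% in Rpl3l to 94.1% in Rpl36.

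The stalk proteins recruit translation factors to the large subunit. Rplp0, their anchor, had rescaled CPM of 341.4, 341.2, 450.9, 500.6 and 572.7 with placebo and 486.7, 496.7, 558.2, 517.6 and 641.9 with osimertinib. The osimertinib values lay in or above the upper part of the placebo range and the groups overlapped, and the log2 fold change of 0.31 ± 0.17 (SE) did not pass (limma, adjusted p = 0.202). Rplp0 was also the 1 member of 83 whose groups did not overlap in deposited CPM, where 5.41% of all genes tested did not. The partners of Rplp0 in the stalk, Rplp1 and Rplp2, had log2 fold changes of -0.04 ± 0.18 and -0.01 ± 0.16.

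The following 5 members, with roles in or beyond the ribosome, lay near 0. Rps6, the target of S6 kinase, had a log2 fold change of 0.09 ± 0.16 (SE). Rpl5 and Rpl11, which bind Mdm2 when ribosome assembly is disturbed, had 0.08 ± 0.16 and 0.02 ± 0.15. Rpl10, which joins the large subunit late, had 0.07 ± 0.15, and Rpl4, which lines the exit tunnel, 0.07 ± 0.16. The intervals of these 5 lay within a 1.5-fold change either way.

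In the small subunit, Rpsa, also known as the laminin receptor, had 0.14 ± 0.18, Rps3 had 0.13 ± 0.14 and Rps26 had 0.12 ± 0.14. Rps27a, made as a fusion with ubiquitin, had 0.09 ± 0.14. Rps19 and Rps14, both linked in human disease to failing red cell production, had -0.14 ± 0.15 and -0.06 ± 0.14, and Rpl41, the smallest protein of the ribosome, had -0.04 ± 0.18. None of the named members passed the test under any single left-out library.

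The paralog ratios depend on the scaling between libraries only through the added 0.5, because both genes are read from the same library. For 5 pairs both genes were tested, and the log2 ratio of deposited CPM + 0.5 was compared by a two-sided exact permutation test over the 252 assignments of libraries to groups (smallest p 0.00794), adjusted over the 5 pairs. No 31-base word is shared within any of these pairs, but 60% of the words of Rpl22l1, 50.1% of Rps27, 22.9% of Rps27l and 9.78% of Rpl22 also occur in genes outside the pair, where reads may be divided. Rps27l rose against Rps27 and Rpl22l1 fell against Rpl22, while the ratios of Rpl3l, Rpl7l1 and Rpl36al did not pass. From rescaled CPM, an alternative chosen after the data were seen, the same 2 pairs passed (differences of 0.56 and -0.26, exact p = 0.0159 and adjusted p = 0.0397 for each).

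Rps27l (chromosome 9, 66946086 to 66949516, + strand, GRCm38), a p53-induced form of Rps27, had rescaled CPM of 13.4, 13.6, 25.3, 20.9 and 16.1 with placebo and 22.1, 18.9, 26.4, 17.7 and 25.8 with osimertinib. Rps27 (chromosome 3, 90212522 to 90213651, - strand), a zinc-finger protein of the small subunit, had 56.2, 53.0, 80.4, 76.1 and 83.8 with placebo and 62.5, 51.4, 51.2, 60.9 and 68.5 with osimertinib. The groups overlapped for each gene, and neither passed on its own (limma, adjusted p = 0.205 and 0.286).

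Their log2 ratio was -2.03, -1.93, -1.65, -1.84 and -2.30 with placebo and -1.48, -1.42, -0.95, -1.76 and -1.39 with osimertinib. The means were -1.95 ± 0.24 (SD, n = 5) and -1.40 ± 0.29, a difference of 0.55 ± 0.17 (SE; exact p = 0.0159, adjusted p = 0.0397). All 5 osimertinib libraries lay above the placebo mean, and only osimertinib replicate 4 lay within the placebo range. Per kb, Rps27l made up 15.0% of the pair with placebo and 20.7% with osimertinib.

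Rpl22l1 (chromosome 3, 28805436 to 28807424, + strand), a paralog of the RNA-binding protein Rpl22, had rescaled CPM of 7.0, 6.2, 8.2, 7.9 and 9.7 with placebo and 5.2, 5.8, 6.5, 7.2 and 7.5 with osimertinib. Rpl22 (chromosome 4, 152325742 to 152334071, + strand) had 57.1, 50.3, 69.9, 64.7 and 79.7 with placebo and 61.0, 56.2, 61.7, 60.6 and 80.2 with osimertinib. The log2 ratio of the pair was -2.94, -2.94, -3.03, -2.96 and -2.90 with placebo, within a narrow range, and -3.43, -3.19, -3.17, -3.00 and -3.35 with osimertinib. The difference was -0.27 ± 0.08 (SE; exact p = 0.0159, adjusted p = 0.0397), with 0 of 5 osimertinib libraries above the placebo mean, and only osimertinib replicate 4 overlapped.

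Both calls rest on 10 libraries. With 1 library left out, the difference between the groups in the log2 ratio lay between 0.44 and 0.64 for Rps27l to Rps27 and, for Rpl22l1 to Rpl22, between -0.33 and -0.22. Both kept an adjusted p of 0.05 or less only without placebo replicate 3 or osimertinib replicate 4. Without any of the other 8 libraries (placebo replicates 1, 2, 4 and 5 and osimertinib replicates 1, 2, 3 and 5) it lay between 0.0595 and 0.0794 by the exact test.

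Rpl3l (chromosome 17, 24727820 to 24736143, + strand) had rescaled CPM of 49.5, 79.9, 96.4, 148.0 and 80.4 with placebo and 88.4, 115.0, 146.3, 85.7 and 178.3 with osimertinib. Rpl3 (chromosome 15, 80077791 to 80091868, - strand), which helps shape the catalytic centre of the large subunit, had 159.0, 132.2, 144.2, 153.9 and 282.0 with placebo and 169.5, 136.3, 124.9, 186.5 and 139.0 with osimertinib. Rpl3l was lowest in placebo replicate 1 and highest in osimertinib replicate 5, and Rpl3 stood apart in placebo replicate 5.

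The log2 ratio of Rpl3l to Rpl3 was -1.67, -0.72, -0.58, -0.06 and -1.80 with placebo and -0.93, -0.24, 0.23, -1.12 and 0.36 with osimertinib. The difference of 0.62 ± 0.45 (SE) did not pass (exact p = 0.198, adjusted p = 0.238), and the groups overlapped widely. Per kb, Rpl3l made up 34.2% of the pair with placebo and 43.9% with osimertinib, from 21.9% in placebo replicate 5 to 55.8% in osimertinib replicate 5. The log2 fold change of Rpl3l alone, 0.46 ± 0.27 (SE), had a 95% interval of -0.13 to 1.06 (limma, adjusted p = 0.233).

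Cardiomyocyte markers moved beside Rpl3l: their sum was 15750, 21313, 33076, 35970 and 21125 rescaled CPM with placebo and 30148, 35546, 46304, 30548 and 51211 with osimertinib. The libraries with the 2 highest sums, osimertinib replicates 5 and 3, also held the 2 highest ratios of Rpl3l to Rpl3. All 10 cardiomyocyte markers were tested, with a median log2 fold change of 0.74, and 2 rose (Actc1 and Pln), beside 10.4% of all genes tested. These 2 passed in 5 and 4 of 10 fits with a library left out. In deposited CPM 5 of the 10 rose (Actc1, Myl3, Pln, Tnnt2 and Myl2), beside 6.62% of all genes. The part of these markers in the Rpl3l values was not tested.

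The pair Rpl7l1 and Rpl7 had log2 ratios of -3.57 ± 0.16 (SD, n = 5) with placebo and -3.44 ± 0.14 with osimertinib (exact p = 0.238, adjusted p = 0.238). Rpl36al and Rpl36a had -0.16 ± 0.19 and 0.06 ± 0.18 (exact p = 0.111, adjusted p = 0.185). Of the paralogs that did not reach the test, Rpl10l, a testis form of Rpl10, was at 0 in all 10 libraries, which allows up to 0.141 to 0.189 CPM. Rpl39l was at 0 in 4 libraries and reached at most 0.197 CPM. Rps23rg1 reached at most 0.166 CPM and Rps27rt 1.27 CPM, and Rps27rt shares 91.6% of its 31-base words with Rps27, so its reads cannot be assigned with certainty.

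**Figure D4:**
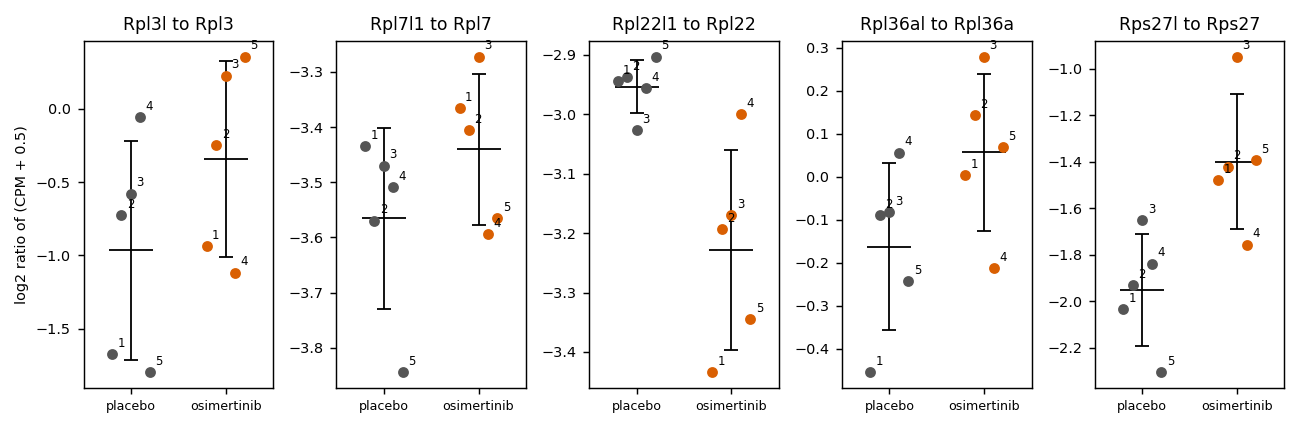
The log2 ratio of each paralog to its partner, from deposited CPM + 0.5, in each library (points, numbered by replicate), with the mean and SD of 5; the vertical scale differs between panels. Rps27l to Rps27 lies higher with osimertinib (mean -1.40 against -1.95) and Rpl22l1 to Rpl22 lower (-3.23 against -2.95), each with osimertinib replicate 4 inside the placebo range.

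The make-up of the ribosomal protein reads was then described by giving each member per 1000000 reads of all 87, which takes out the variation the members share. By that measure the means of 78 of 83 members differed by less than 20% between the groups. In 13 members (15.7%) the groups did not overlap, against 7.43% of all genes tested on the same scale, where other genes still carry the variation between libraries. A limma fit on this scale called 0 of 83 members, with Rpl38 at the lowest adjusted p, 0.0933. The members named from this measure were chosen after their values were seen, apart from those already listed above.

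Rpl38, a large-subunit protein known for its part in translating Hox messages, had rescaled CPM of 46.6, 35.3, 69.6, 48.9 and 63.9 with placebo and 45.3, 33.5, 35.1, 40.4 and 44.0 with osimertinib. Per 1000000 ribosomal protein reads it lay between 3219 and 4661 with placebo and between 2565 and 3157 with osimertinib, a mean lower by 25.6%. The log2 fold change in rescaled CPM, -0.38 ± 0.17 (SE), did not pass (limma, adjusted p = 0.127). It passed in the CPM without mitochondrial genes, their copies and haemoglobin genes, an alternative chosen after the data were seen, at -0.58 (limma, adjusted p = 0.0354), as did Rpl35a at -0.41 (0.0384) and Rpl22l1 at -0.46 (0.0469). On that scale the median of all genes was -0.17 and that of the members -0.18, and 14% of all genes fell.

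The 10 members below the placebo range were Rpl38, Rpl22l1, Rps12, Rps27, Rpl31, Rpl36, Rpl28, Rpl13a, Rpl26 and Rps18, with means lower by 7.87% to 25.6%. The 3 above it were Rplp0, Rpl7a and Rps3. Rplp0 held 31251 ± 1737 (SD, n = 5) per 1000000 ribosomal protein reads with placebo and 38012 ± 2576 with osimertinib, which was 21.6% more. Rps2, which sits where messages enter the small subunit, and Rpl24 at the subunit interface had larger means with osimertinib by 26.4% and 17.1%, with overlap.

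Short members tended to lie on the low side. Of the 30 tested members with a transcript under 0.7 kb, 22 lay below 0 in rescaled CPM (median log2 fold change -0.06), and of the 53 longer ones 17 did (median 0.05). Of the 10 members below the placebo range in share of ribosomal protein reads, 8 were under 0.7 kb, beside 30 of all 83. These 10 were 0.345 to 1.05 kb long, and the 3 above the range 0.914 to 1.91 kb. They were picked by values of these same libraries and are not separate support. Spearman's rho between length and log2 fold change was 0.38 across the 83 members, which share their libraries and are not independent. Across 11842 coding genes tested it was -0.20, and 162 of 210 other coding genes under 0.7 kb lay above 0. Of members with over 50% of their words shared with other genes, 28 had a median of 0.04, and the other 55 a median of 0.00.

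**Figure D5:**
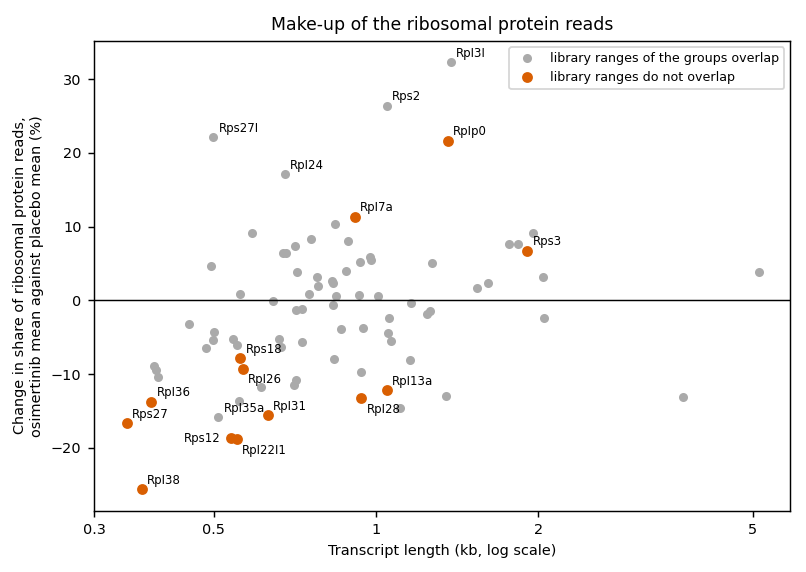
Change in each member's share of ribosomal protein reads (osimertinib mean against placebo mean, in percent) against transcript length in kb on a log scale, 1 point per tested gene. The 13 coloured genes are those whose library ranges do not overlap, 10 below 0 and 3 above; Rpl38 lies lowest at -25.6% and Rpl3l highest at 32.3%, with overlapping ranges.

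Fau and Rack1, proteins of the ribosome outside the naming rule, were also tested. Fau, which encodes ribosomal protein eS30 as part of a fusion, had a log2 fold change of -0.15 ± 0.15 (SE), and the scaffold Rack1 0.08 ± 0.14. Neither passed (limma, adjusted p = 0.494 and 0.699).

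Of the ribosome biogenesis genes, 6 of 64 tested fell and 0 rose (limma, rescaled CPM), with a list median of 0.05. This is 9.38% of the list, beside 10.5% of all genes tested that fell and 10.4% that rose. All 6 kept a negative sign across the 5 scalings. But in the deposited CPM none passed (limma, 4 of the list at an unadjusted p under 0.05). There 6.62% of all genes tested rose and 0.13% fell. Taf1c, a subunit of the RNA polymerase I selectivity factor, fell from 16.1 ± 3.82 (SD) to 8.77 ± 1.55 rescaled CPM, with a log2 fold change of -0.83 ± 0.16 (SE; limma, adjusted p = 0.0134). It passed with each library left out in turn, at an adjusted p of at most 0.0420.

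Polr1b, a core subunit of RNA polymerase I, fell by 0.42, as a log2 change (limma, adjusted p = 0.0303). Utp15 of the small-subunit processome fell by 0.50 (0.0252) and the large-subunit remodelling enzyme Mdn1 by 0.54 (0.0305). These 3 missed the threshold without placebo replicate 1 or 2 or osimertinib replicate 3 or 5, at an adjusted p of at most 0.0859. The other genes that fell were Nop56 and Bud23, which passed in 3 of 10 such fits each. The list's count was 1 without placebo replicate 1 or osimertinib replicate 3 or 5, and 2 without placebo replicate 2. Ubtf, the activator of RNA polymerase I, had -0.22 ± 0.09 (adjusted p = 0.0970), and the nucleolar proteins Ncl and Npm1 had 0.24 ± 0.11 and 0.17 ± 0.11.

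Of 49 translation factors, 6 rose and 1 fell in rescaled CPM, with a list median of 0.27 beside 0.01 over all genes. In deposited CPM 2 rose, beside 6.62% of all genes tested. Those called in rescaled CPM were 14.3% of the list, beside 20.8% of all genes tested. Eef1a2, the elongation factor of muscle and nerve, rose from 197.0 ± 69.1 (SD) to 431.4 ± 163 rescaled CPM (log2 fold change 1.13 ± 0.29, limma, adjusted p = 0.0252). Its widely expressed partner Eef1a1 had 1326 ± 393 and 1105 ± 191 (-0.24 ± 0.22, adjusted p = 0.450), and Eef2 had 0.31 ± 0.18. Pabpc4, a poly(A)-binding protein, rose by a log2 fold change of 0.87 ± 0.18 (adjusted p = 0.0141).

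Pabpc4 passed with each library left out. Eef1a2 and Eif3c (0.40, adjusted p = 0.0333) did not pass without placebo replicate 1 or 2 or osimertinib replicate 3 or 5, at an adjusted p of at most 0.0861. Eif4g3, a scaffold of the cap-binding complex, fell by 0.39 in log2 (adjusted p = 0.0357) and also missed it without placebo replicate 5 or osimertinib replicate 2. The list's count fell to 1 without placebo replicate 1 or 2 or osimertinib replicate 3 or 5 and to 3 without osimertinib replicate 2, and rose to 11 without placebo replicate 3. The other genes that rose were Eif4g1, Eif4e and Eif5a, with log2 fold changes of 0.54, 0.61 and 0.52, and passed in 4, 4 and 3 of 10 such fits.

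Of 38 tested genes of mTORC1 signalling, the kinase complex that links growth signals to translation of TOP messages, 5 rose and 1 fell in rescaled CPM, and 4 rose in deposited CPM. Those called in rescaled CPM were 15.8% of the list, beside 20.8% of all genes tested, and 6.62% of all genes rose in deposited CPM. Eif4ebp1, the repressor of cap-dependent initiation that mTORC1 inactivates, rose from 17.9 ± 5.87 (SD) to 35.6 ± 8.60 rescaled CPM (1.00 ± 0.21, limma, adjusted p = 0.0158). Rps6kb2, an S6 kinase, fell from 40.2 ± 6.66 to 24.7 ± 3.40 (-0.69 ± 0.13, adjusted p = 0.0130). Both passed with each library left out in turn, though Rps6kb2 did not pass in the deposited CPM (adjusted p = 0.479).

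Rragd, a Rag GTPase that brings mTORC1 to the lysosome, rose by a log2 fold change of 1.21 ± 0.30 (limma, adjusted p = 0.0213), and Lamtor1, its lysosomal anchor, by 0.70 ± 0.21 (0.0372). Rragd missed the threshold without placebo replicate 2 or osimertinib replicate 3 or 5, and Lamtor1 also without placebo replicate 1 or osimertinib replicate 2. Rheb and Tbc1d7 rose by 0.40 and 0.74 and passed in 2 and 3 of 10 such fits. The list's count fell to 2 or 3 without placebo replicate 1 or 2 or osimertinib replicate 2, 3 or 5. Mtor itself had 0.05 ± 0.10, Larp1 0.11 ± 0.11, Rps6kb1 -0.15 ± 0.12 and Myc 0.12 ± 0.24, none past the test (adjusted p = 0.734, 0.468, 0.358 and 0.747).

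In ribosome rescue and quality control, 2 of 10 tested genes rose and 3 fell in rescaled CPM. None passed in deposited CPM (limma, 3 at an unadjusted p under 0.05), beside 6.74% of all genes tested. The 5 called in rescaled CPM were 50% of this short list, beside 20.8% of all genes tested. Ankzf1, which releases stalled chains, fell from 44.0 ± 5.70 (SD) to 27.6 ± 4.84 rescaled CPM (-0.67 ± 0.14, limma, adjusted p = 0.0141) and passed with each library left out. Nemf, which marks stalled chains, fell by 0.47 in log2 (0.0243) and the collision sensor Gcn1 by 0.30 (0.0454). Rnf10, a ubiquitin ligase of the small subunit, rose by 0.50 (0.0256), and Map3k20 by 0.44.

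Nemf missed the threshold without placebo replicate 2 or osimertinib replicate 3 or 5, Rnf10 without these or placebo replicate 1, and Gcn1 and Map3k20 in 7 of 10 such fits. Each called gene of these lists kept its sign in all 5 scalings. The list's count lay between 1 and 3 without placebo replicate 1, 2 or 5 or osimertinib replicate 2, 3 or 5. Markers of other cells moved beside these lists. Of 9 macrophage markers 2 rose in rescaled CPM (Lyz2 and Adgre1), beside 10.4% of all genes. Of 7 endothelial markers 2 fell (Egfl7 and Tie1), beside 10.5%. With 1 library left out these 4 passed in 1 to 5 of 10 fits. In deposited CPM none of either list passed (limma, 5 macrophage and 0 endothelial markers at an unadjusted p under 0.05), beside 6.74% of all genes. The macrophage median log2 fold change was 0.35 in rescaled and 0.62 in deposited CPM, and the endothelial median -0.20 and 0.08. Macrophage markers summed to 172.5 to 255.2 rescaled CPM with placebo and 246.0 to 327.7 with osimertinib, and endothelial markers to 1277 to 1945 and 1133 to 1455. Their part in these results was not tested.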

How the data were processed

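Left ventricular poly(A) RNA of 10 mouse libraries, 5 per group by their titles, was sequenced with strand kept, per the labels' protocols and the design text. The values deposited by the authors are CPM, and each column sums to 1000000 with no factor between libraries. The design text names STAR, RSEM, GRCm38, nf-core, limma and voom; the submitters' processing notes name cutadapt 1.9, HISAT2 2.0.4, StringTie 1.3.4d, DESeq2 and hg38. The gene identifiers are those of mouse.

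Low values were whole multiples of a read, to a tolerance of 0.01 read, in 90.8% to 93.2% of cases. The main fit therefore did not use counts, and voom on estimated reads was run only as an alternative. Genes with 1 CPM or more in any 5 libraries were tested (12350). The main fit was limma 3.58.1 in R 4.3.3 with an intensity trend on log2(rescaled CPM + 0.5), two-sided, with Benjamini-Hochberg adjustment over all genes tested and calls at 0.05. The script was tested on simulated data. Intervals use the moderated degrees of freedom, and a 0 was given an upper limit of 3 reads. Other scalings, pseudocounts, filters, voom and left-out libraries were tried.

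Transcript length is the median over principal coding transcripts of GENCODE M21, which 45143 of the identifiers matched. Named members are the 8 with the highest CPM per kb, the paralogs and partners, untested members and 15 fixed genes; named pathway genes are the 4 called with the lowest p and 14 fixed genes; others were chosen after their values were seen, and the values of 2 genes under this rule are not reported here. The members and lists were chosen with earlier results of these data known.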

Additional observations from a re-analysis of the deposited data

Results flagged for a closer look

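In 6 of 178 groups of 5 libraries examined, 1 library lay far from the other 4 by Dixon's gap; chance gives about 1 in 20. Among members and their relatives these were Rpl3 in placebo replicate 5 (282.0 rescaled CPM, the others 132.2 to 159.0) and Rpl22 in osimertinib replicate 5 (80.2, the others 56.2 to 61.7). In placebo replicate 5, Taf1c was at 22.8 rescaled CPM (the others 13.5 to 15.1), Rps6kb2 at 51.8 (34.7 to 38.8) and Adgre1 at 4.85 (2.15 to 2.75). The members' share of reads outside mitochondrial genes and their copies was 4.75% in that library and 3.02% to 3.49% in the other 4.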

How the results depend on the processing

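The members' call count of 0 held in 33 of 34 alternatives, and was 3 in the CPM without mitochondrial genes, their copies and haemoglobin genes. That scaling called 3 translation factors, beside 2400 of all 12324 genes tested in it. Without each library in turn the members' median log2 fold change lay between -0.062 and 0.087; in the deposited CPM it was 0.30, and between 0.12 and 0.38 with a library left out. The 35 named members passed the test in none of 420 single-gene alternatives (the deposited CPM, the replicate block and each library left out), and their sign changed in 52; Rpl22l1 and 2 other members passed in the scaling without mitochondrial copies named above, which is not among the 420.

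Calls over all genes were 833 in the deposited CPM (6.74%; 817 higher and 16 lower, against 1283 and 1291), 625 without mitochondrial and haemoglobin genes, 1227 with no filter, 717 scaled to the summed ribosomal protein CPM, 521 to 2800 with each library left out (864, 794, 521 and 706 without placebo replicate 1 and 2 and osimertinib replicate 3 and 5), and 307 to 1126 with each left out of the deposited CPM. In the same order, biogenesis genes called were 0, 1, 2, 1, 1 to 7 and 0 to 1. Translation factors were 2, 2, 2, 2, 1 to 11 and 1 to 3, and 12 with array weights, where 3075 of all genes were called. Rescue genes were 0, 0, 3, 1, 1 to 6 and 0 to 1, and 3 with no intensity trend, where 2266 of all genes were called. The mTORC1 genes were 3 with no filter, 2 to 9 with each library left out and 2 to 4 in the deposited CPM with each left out. The cause was not tested.

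Replicate numbers are shared between the groups. Same-numbered libraries deviated with correlations of 0.43, 0.24, 0.46, -0.34 and -0.16, and 3 of 5 correlated best with their own number. So few values cannot decide whether the libraries pair. With a replicate block limma called 0 members and 14 translation factors, beside 2949 of all 12350 genes tested. As paired differences, Rps27l to Rps27 was 0.55 and Rpl22l1 to Rpl22 was -0.27, each with an exact sign-flip p of 0.0625, the smallest that 5 pairs allow. With 1 library left out the group difference in the log2 ratio lay between 0.44 and 0.64 for Rps27l to Rps27 and, for Rpl22l1 to Rpl22, between -0.33 and -0.22. The block changed no other ratio. The choice of scaling limits any statement on the direction of the members as a whole.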
